A study of Sus scrofa with 2 samples.

Results

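Thin filaments are the actin filaments of the sarcomere, and tropomyosin and the troponin complex lie along them. Tropomyosin is a coiled coil that covers the myosin-binding sites of actin, and troponin C is the calcium sensor that moves it when calcium is released. Slow and fast fibres use different genes for each of these subunits. TNNC1 encodes the form of troponin C made in slow fibres and in heart, and TNNC2 the form of fast fibres. Among the tropomyosins, TPM3 is the alpha chain of slow fibres, TPM1 that of fast fibres and heart, TPM2 the beta chain found in both fibre classes, and TPM4 a chain mostly of the cytoskeleton. Single tropomyosin genes make muscle and non-muscle isoforms through alternative exons.

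Here the entries of these genes were compared between 2 RNA-seq libraries of biceps femoris muscle of cloned piglets. Members were the entries with the symbol TNNC1, TNNC2 or TPM3, the entry ENSSSCG00000006556, and every entry whose best protein match was described as a troponin or tropomyosin, without tropomodulins. The rule found 9 of the 12535 entries with reads in either library, 2 of troponin C and 7 of tropomyosin, at 6 genes. No entry that the rule matched was troponin I or troponin T, which were not analysed here.

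All piglets were made by somatic cell nuclear transfer and sampled on Day 1 after birth. The abnormal cloned library was made from pooled RNA of 3 piglets with developmental failure (enlarged tongue, disability in standing and walking, and a protruding navel), all from embryonic fibroblasts of 1 male Large White pig. The normal cloned library was made from pooled RNA of 4 normal cloned piglets by the methods of the study (3 by the sample labels), 2 of them from that donor and 2 from ear fibroblasts of another male Large White pig. Phenotype and, in part, donor animal and cell type therefore cannot be told apart. Since each group is 1 library, no difference could be checked against replicates, any test on the reads sets one library against the other rather than one condition against the other, and all intervals cover counting error only.

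The libraries held 6.38 M (abnormal) and 6.52 M (normal) unique reads, and 36.0% and 46.1% of them lay on the 13 mitochondrial transcripts. RPKM, the deposited level, is the read count divided by transcript length and library total. Over the 7493 entries that reached 10 reads in each library, RPKM was higher in the abnormal library for 68.7%, and the median log2 ratio was 0.36. Of 9 symbols that mark skeletal muscle, 4 were found. ACTA1 and NEB had RPKM values of at least 402 in both libraries. MYOG had 155 (abnormal) and 116 (normal), and RYR1, which was the lower in the abnormal library, 7.01 and 10.3. Coordinates are those of Sscrofa9.

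The members called lower in the abnormal library were entries of the slow-fibre genes of both subunits. Slow and fast are traits of the gene here, and which TPM3 isoform the reads came from was not determined. An entry was called when its FDR, from the Audic-Claverie test (two-sided) of its read counts with Benjamini-Hochberg adjustment over all 12535 entries, was at most 0.001 and its RPKM differed at least 2-fold. By this rule 2 of the 9 members were lower in the abnormal library, TNNC1 and the main entry of TPM3, where 1.45% of all entries were lower, and 0 members were higher, where 12% of all entries were higher. Both calls were lost, with 0 members called, under the exact test of edgeR when a biological variation of 0.4 was assumed. At an unadjusted p under 0.05 in the Audic-Claverie test, 1 member was higher and 5 were lower. The share of all entries under that limit was not counted. With many reads even a small ratio passes it, as for TNNC2 at a log2 ratio of -0.25. Among the 913 entries with at least 1000 reads over both libraries, 2.63% were lower and 17% higher, and TNNC1 had the 2nd and the TPM3 entry the 5th lowest log2 ratio of RPKM. The median log2 ratio over all 9 members was -0.29, against 0.35 over all entries. In a bulk sample, fewer cells of a type and less RNA per cell cannot be told apart.

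**Figure D1:**
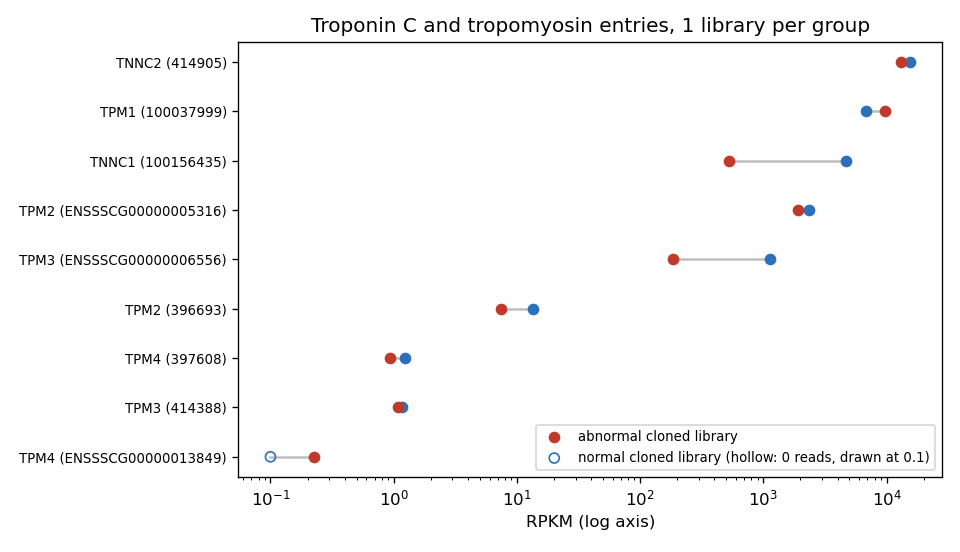
RPKM (log axis) of the 9 entries in the abnormal (red) and normal (blue) cloned library, each a single value, with the gene and the entry identifier on the other axis. The widest gaps are those of TNNC1, 523 against 4728, and of the TPM3 entry ENSSSCG00000006556, 184 against 1128. The hollow point is an entry with 0 reads in the normal library, drawn at an RPKM of 0.1.

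TNNC1 (gene 100156435) lies on the minus strand of chromosome 13 from 29205576 to 29208529, and its transcript is 701 bases long. Its reads numbered 2336 (abnormal library) and 21598 (normal library), and its RPKM values were 523 and 4728. The RPKM was thus 9.05 times as high in the normal library, with a log2 ratio of -3.18 (95% interval -3.24 to -3.12). In the order of all entries by RPKM it stood at place 21 in the normal and at place 137 in the abnormal library. Unique reads covered 98.0% and 98.3% of its transcript, so reads lay along nearly all of it in both libraries.

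TNNC2 (gene 414905; minus strand of chromosome 17, 50089642 to 50092955; 830 bases) was the most abundant member. It drew 68907 reads (abnormal) and 83882 reads (normal), for RPKM values of 13018 and 15510.2. Its log2 ratio of -0.25 (95% interval -0.27 to -0.24) was under the 2-fold limit, and it was not called. Unlike the slow gene, it held its place by RPKM, at 14 (abnormal) and 15 (normal). Under the other scalings tried its log2 ratio was lower, from -0.47 (equal GAPDH) to -0.65 (TMM), and it was still not called.

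The ratio of slow to fast isoform does not depend on the total of a library. For each TNNC1 transcript there were 3.28 TNNC2 transcripts by RPKM in the normal and 24.9 in the abnormal library. TNNC1 made up 23.4% of troponin C by RPKM in the normal and 3.86% in the abnormal library. By reads its shares were 20.5% (95% Wilson interval 20.2% to 20.7%) and 3.28% (3.15% to 3.41%). The log2 of the ratio of TNNC1 to TNNC2 was lower by 2.93 in the abnormal library (log2 difference -2.93, 95% interval -2.99 to -2.86). Troponin C as a whole took 1.62% of the reads of the normal and 1.12% of the abnormal library.

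TPM3 was the tropomyosin called lower on library totals. It is listed as 2 overlapping entries on the plus strand of chromosome 4. ENSSSCG00000006556 (99593788 to 99616404, 1643 bases) drew 1933 reads (abnormal) and 12077 reads (normal), for RPKM values of 184 and 1128. Its log2 ratio was -2.61 (95% interval -2.68 to -2.54). Its RPKM was 6.12 times as high in the normal library, a smaller gap than that of TNNC1, and the ratio of TPM3 to TNNC1 was higher in the abnormal library (log2 difference 0.57, 95% interval 0.48 to 0.67). The other entry, 414388 (99593811 to 99616298, 1435 bases), had only 10 and 11 reads, with a log2 ratio of -0.11 (95% interval -1.31 to 1.09), and no call was made.

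The 2 TPM3 entries did not move alike. Entry 414388 held 0.091% of the reads of the locus in the normal library (95% interval 0.051% to 0.163%) and 0.515% in the abnormal library (0.280% to 0.945%). The log2 of its ratio to the other entry was higher by 2.51 in the abnormal library (95% interval 1.27 to 3.74). This rests on 10 and 11 reads, so its size is poorly known.

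TPM1 (gene 100037999; minus strand of chromosome 1, 112381950 to 112405205; 1343 bases) had the higher RPKM in the abnormal library. It drew 83839 reads (abnormal) and 59244 reads (normal), for RPKM values of 9788 and 6770.1. Its log2 ratio was 0.53 (95% interval 0.52 to 0.55). This was 1.45 times the RPKM of the normal library, and TPM1 was not called. Relative to the median entry, which was itself higher by 0.36, its log2 ratio was 0.17, and it stayed above 0 under every scaling tried, down to 0.14 with TMM. For each TPM3 transcript there were 5.995 TPM1 transcripts by RPKM in the normal and 52.7 in the abnormal library. Reads covered under 20% of each TPM3 entry, and by reads per covered base these values were 1.12 and 9.93. Both TPM3 entries are summed in these ratios. By RPKM the log2 of the TPM3 to TPM1 ratio differed by -3.14 (95% interval -3.21 to -3.07).

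TPM2 is listed as 2 entries with the same span (minus strand of chromosome 1, 247494585 to 247502040) and the same length, 1106 bases. ENSSSCG00000005316, whose best protein match was a mouse beta-tropomyosin, drew 13494 reads (abnormal) and 16882 reads (normal), for RPKM values of 1913 and 2343. Its log2 ratio was -0.29 (95% interval -0.32 to -0.26). Entry 396693, matched to a predicted dog beta isoform, drew 52 and 97 reads, and its log2 ratio was -0.87 (95% interval -1.35 to -0.38). Neither was called, the second with an FDR of 0.0015. Under each of the 4 other scalings the second was called lower, at log2 ratios from -1.08 to -1.26. It held 0.384% (abnormal) and 0.571% (normal) of the reads of the locus, a log2 difference of -0.58 (95% interval -1.06 to -0.089).

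TPM4 was close to the limit of detection at its 2 entries on the minus strand of chromosome 2. Entry 397608 (60590061 to 60606372) drew 9 reads (abnormal) and 12 reads (normal). Its log2 ratio was -0.38 (95% interval -1.60 to 0.83), and a difference of that size was not detectable at this depth. ENSSSCG00000013849 had 2 and 0 reads, at or under the floor of 3 reads (0.470 and 0.460 RPM, the RPKM before division by length), so no ratio is given. In all, 7 of the 9 members had at least 10 reads in both libraries.

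**Figure D2:**
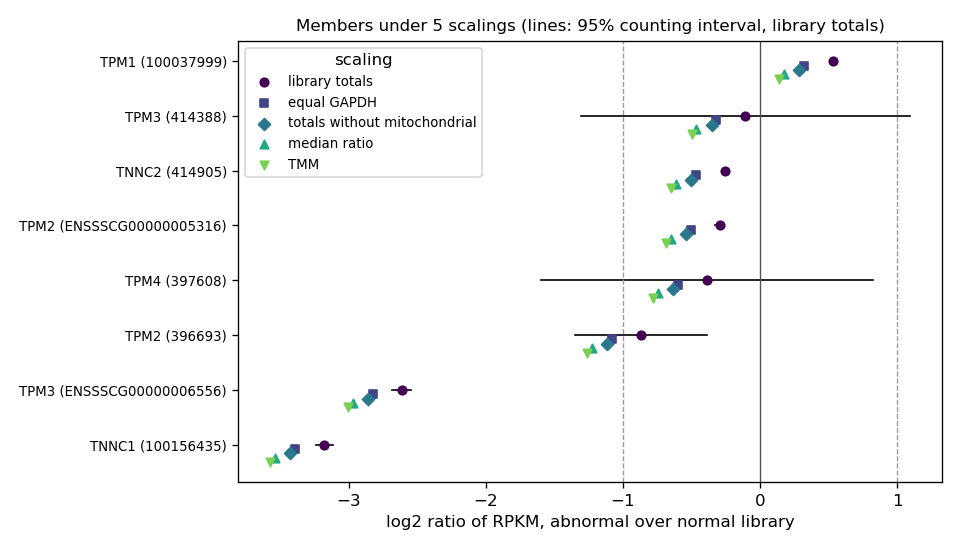
Log2 ratio of RPKM (abnormal over normal library) of the 8 members above the floor, under library totals (circles, with 95% counting intervals as lines) and 4 other scalings of the abnormal library. The dashed lines mark the 2-fold limits. TNNC1 and the main TPM3 entry lie below -2.5 under all 5 scalings, while entry 396693 of TPM2 crosses the lower limit under the other 4.

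Set side by side, tropomyosin as a whole drew 99339 reads (abnormal) and 88323 reads (normal), or 1.56% and 1.36% of all reads, a log2 ratio of 0.20 (95% interval 0.19 to 0.21). Leaving out the mitochondrial reads, these were 2.43% and 2.51% of the rest. Troponin C was 1.75% and 3.003% of the rest. Of the tropomyosin reads, TPM1 held 84.4% (abnormal) and 67.1% (normal), while reads covered under 20% of each TPM2 and TPM3 entry. The total by reads therefore mostly follows TPM1. By reads per covered base, given below, TPM1, TPM2 and TPM3 together were instead lower in the abnormal library. By RPKM, TPM1 took 82.3% (abnormal) and 66.0% (normal) of tropomyosin, TPM2 16.1% and 23.0%, and TPM3 1.56% and 11.0%. The ratio of the beta chain TPM2 to TPM1 was lower in the abnormal library, by a log2 difference of -0.83 (95% interval -0.86 to -0.79).

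How much of each transcript the reads reached bears on these levels. Every one of the 2144 entries with exactly 1 read in a library was covered over 49 bases (within 0.5 base of the deposited percent times the length), which was taken as the read length. The deposited counts are of unique reads. If these are reads with a single best place, a read that matches both entries of a locus is in neither count. All 6 entries of TPM2, TPM3 and TPM4 share a locus with another entry, as do 432 of the 12535 entries. ENSSSCG00000005316 of TPM2 was covered over 15.4% of its length in both libraries (about 170 bases), and ENSSSCG00000006556 of TPM3 over 18.8% and 18.0% (308 and 296 bases). TNNC1, TNNC2 and TPM1, alone at their loci, were covered over 96.0% to 98.4%. Among entries with at least 1000 reads the median coverage was 96.4% (abnormal) and 95.4% (normal), and 6 of 513 and 9 of 418 were covered over less than 20%. At shared loci these were 3 of 18 (abnormal) and 5 of 15 (normal), and elsewhere 3 of 495 and 4 of 403. The RPKM of TPM2 and TPM3, which divides by the whole length, therefore understates their level if the uncovered part was expressed, while the covered share was nearly equal between the libraries.

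**Figure D3:**
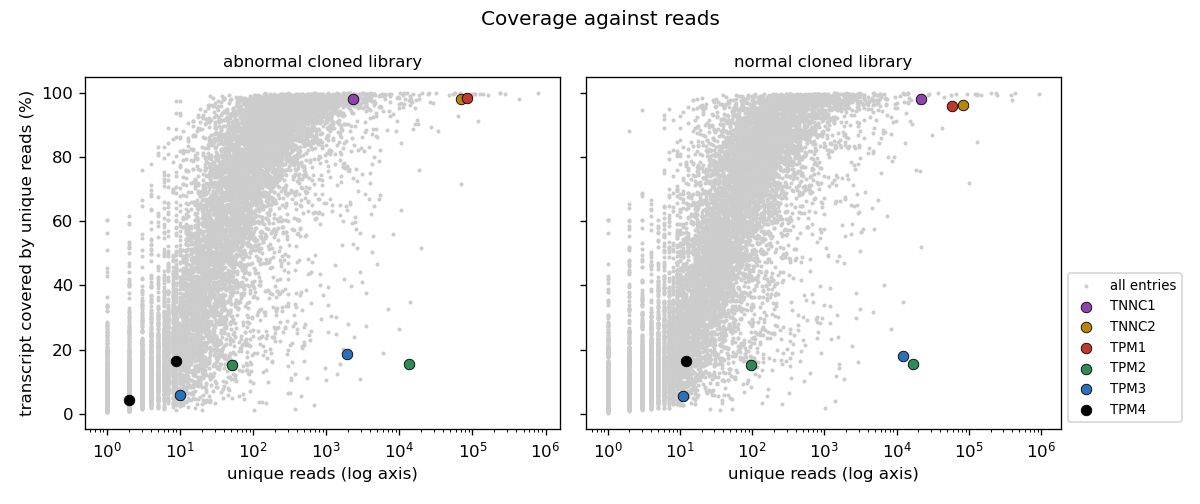
Share of each transcript covered by unique reads (%) against its unique reads (log axis), for all entries (grey) and the members (coloured by gene) in the abnormal (left) and normal (right) library. TNNC1, TNNC2 and TPM1 lie at the top with most well-read entries, while the main entries of TPM2 and TPM3 lie under 20% with 1933 to 16882 reads.

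Dividing reads by the covered bases instead changed the order of the tropomyosins. Only the main entries of TPM2 and TPM3 were used here. In the abnormal library TPM2 had 79.4 reads per covered base, TPM1 63.5 and TPM3 6.27, and in the normal library TPM2 had 99.3, TPM1 45.96 and TPM3 40.8. On this scale TPM3 made up 21.9% of the 3 in the normal and 4.21% in the abnormal library, beside 23.0% and 3.86% for TNNC1 within troponin C. TPM2 made up 53.4% and 53.2%, and TPM1 24.7% and 42.6%. The shift of the slow to fast ratio was nearly the same as by RPKM, a log2 difference of -3.17 for the main TPM3 entry against TPM1 and -2.89 for TNNC1 against TNNC2. This scale was chosen after the coverage had been seen.

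**Figure D4:**
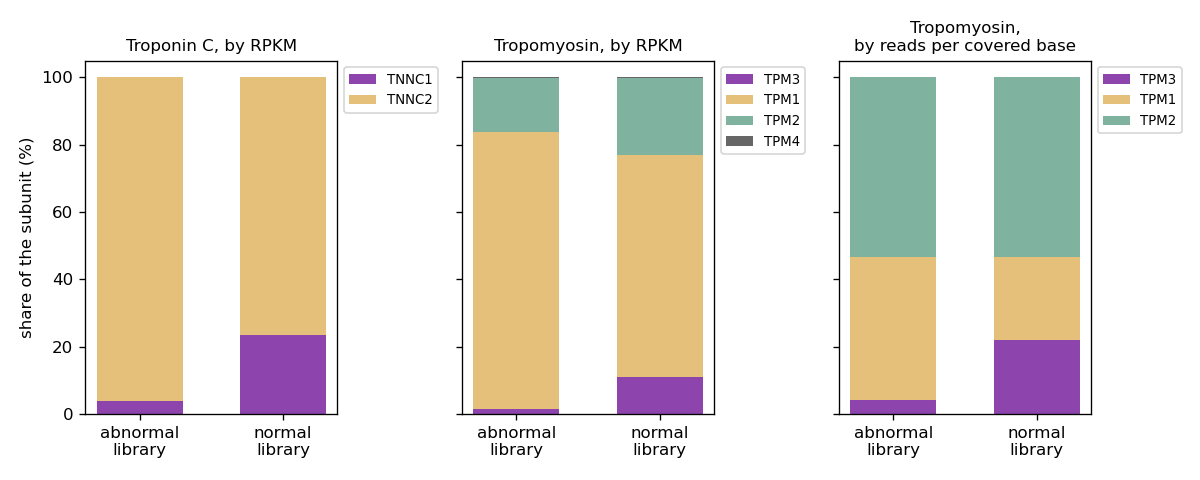
Stacked shares (%, each bar summing to the whole subunit) of the troponin C genes by RPKM, of the tropomyosin genes by RPKM, and of TPM1, TPM2 and TPM3 (main entries) by reads per covered base, in the abnormal and normal library. The slow gene, at the foot of each bar, shrinks from 23.4% to 3.86%, from 11.0% to 1.56% and from 21.9% to 4.21%.

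Other genes of the sarcomere were compared through lists of symbols. Of 15 slow-fibre genes, 9 were found, as 10 entries. Of these entries 3 were lower and 3 higher, where 1.45% and 12% of all entries were. The median log2 ratio was 0.11 over the 10 and -0.15 over the 9 with at least 10 reads in both. After median-ratio scaling it was -0.25 over the 10. The 3 lower were MYH7, MYL2 (listed as MLC2V) and MYL3, the heavy chain and the light chains of slow myosin, with log2 ratios of -3.52, -3.02 and -3.04. The 3 higher were both entries of CSRP3 (2.57 and 3.31) and ANKRD2 (2.75), a LIM protein and an ankyrin repeat protein tied to muscle stretch. CA3, CASQ2, PLN and MYH7B were not called, at -0.15, 0.37, -0.52 and 2 against 1 reads. Of 16 fast-fibre genes, 12 were found, as 13 entries, of which 0 were lower and 1 was higher, where 1.45% and 12% of all entries were. The 1 was PVALB (listed as PVALB1, log2 ratio 1.94), the calcium buffer of fast fibres. At a share of 1.45% few lower calls can fall among 13 entries, so a count of 0 tells nothing about the fast list. The count of 1 higher lay near the share of 12%. The median of the fast list was 0.49 (0.13 after median-ratio scaling), and MYLPF, MYH1, ENO3, ATP2A1 and MYH2, its entries with the most reads, had 0.13, -0.49, 0.63, 0.89 and -0.08.

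Partners of the thin filament were listed as 25 genes, of which 20 were found, as 23 entries. Of these entries 8 were higher and 0 lower (median log2 ratio 0.44, or 0.079 after median-ratio scaling), where 12% of all entries were higher and 1.45% lower. At the latter share few lower calls can fall among 23 entries, so their count of 0 tells nothing about the partners. ACTA1, the actin of skeletal thin filaments, had RPKM values of 42258 and 37387 and a log2 ratio of 0.18, and cardiac actin ACTC1 had 0.14. Neither was called, and both lay under the median shift of 0.36 over all entries. NEB, the nebulin that spans the filament, was higher at 1.52, as was LMOD2, a leiomodin that binds the pointed end of the filament, at 1.43. ACTN2, the alpha-actinin that anchors thin filaments at the Z-disc, was higher at 1.18. XIRP1 and XIRP2, actin-binding repeat proteins, were higher at 4.77 and, over the 2 entries of XIRP2, at 1.84 and 2.93. CFL2, the muscle cofilin, was higher at 1.30, and KLHL40, a kelch protein that binds nebulin, at 1.28. MYBPC1, the slow myosin-binding protein C, was at -0.14 in the entry with most reads and was not called.

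**Figure D5:**
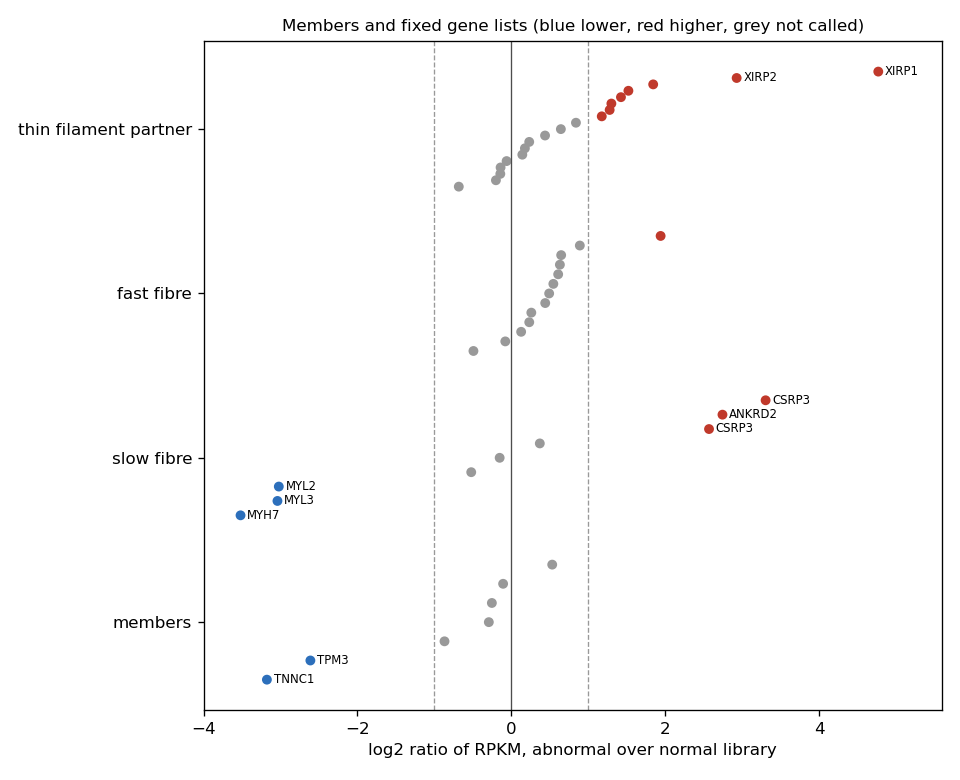
Log2 ratio of RPKM (abnormal over normal library) of entries with at least 10 reads in both libraries, for the members and the slow-fibre, fast-fibre and thin-filament partner lists, with vertical spread for legibility only. Blue points were called lower, red higher, grey neither, and dashed lines mark 2-fold. TNNC1 and TPM3 lie with MYH7, MYL2 and MYL3 on the left, and no partner or fast-fibre entry lies left of -1. Since 1.45% of all entries were called lower, few can be so placed in lists of this size.

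Among the 742 other entries with a symbol and at least 1000 reads, the 5 nearest to TNNC1 in log2 ratio were MYL3 (listed as LOC100515755, 0.14 above it), MLC2V (0.15 above), MYH7 (0.34 below), and then SLA-DRA and LOC100521665, which stood 1.49 and 1.58 above. With a single ratio per entry, this likeness is over 2 libraries only.

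TNNC1 is also expressed in heart, and the protein match of MYH7 names it the beta isoform of cardiac muscle as well as the slow one. Heart markers are therefore given beside them. Of 12 heart symbols, 4 were found, with RPKM summing to 14.0 (abnormal) and 39.3 (normal). Of these 4, MYL4 (42 against 140 reads) and MYL7 (31 against 78 reads) were lower, where 1.45% of all entries were lower. MYH6 had 2 and 7 reads, and RYR2 13 and 10. NPPA, NPPB, GATA4 and NKX2-5 were not among the entries matched by symbol. MYL4 is also a light chain of fetal skeletal muscle. Tropomyosins are also expressed in smooth muscle and fibroblasts. Of the 5 smooth-muscle symbols found of 8 and the 5 fibroblast symbols found of 6, 0 were called in either direction. Over all entries 1.45% were lower and 12% higher. At these shares few calls can fall among so few entries, so the 0 tells nothing about those cells. The summed RPKM values were 376 and 420.4 for smooth muscle and 1358 and 1510 for fibroblasts (abnormal and normal library). The blood list (3 of 6 found) had 479 and 693, mostly HBB, and the fat list (3 of 5 found) had at most 2 reads at any entry. The part of any of these cells in the members' differences was not tested.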

How the data were processed

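Total RNA of biceps femoris was pooled by group, enriched with oligo(dT) beads and sequenced as 1 library per group. The authors filtered the reads, mapped them to Sscrofa9 transcripts with SOAPaligner/soap2 (no more than 2 mismatches per read), and deposited a raw count of unique reads for each transcript. They also deposited the RPKM, which divides this count by transcript length and library total, and the coverage, the percent of the transcript that unique reads reach. Entries absent from a table were taken as 0 reads. The 3 measures were joined by identifier.

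The log2 ratio set an RPKM of 0 to 0.001. The Audic-Claverie test, the reads of the abnormal library given those of the normal library, was two-sided by doubling and adjusted by Benjamini-Hochberg. A call needed an FDR no higher than 0.001 together with a 2-fold or larger difference in RPKM. Intervals of log2 ratios and shares are 95% Wilson intervals, and those of ratios of ratios come from the 4 read counts on a log scale. Symbols came from the deposited tables, RefSeq and Ensembl. Members and lists were chosen with earlier results of these data known. Named were all members, up to 5 entries of each list by reads, and the 5 entries nearest to TNNC1. The other called entries of the slow-fibre, fast-fibre and partner lists, and the other slow-fibre entries, were named after their values were seen. Scripts were tested on simulated data. Alternatives were 4 scalings, pseudocounts of 1 and 0.1 RPKM, Fisher's test, the exact test of edgeR with biological variation assumed at 0.4 or 0.2, a read minimum and a larger fold. Python 3.11.15, scipy 1.17.1, R 4.3.3 and edgeR 4.0.16 were used. Sequences, and the planned ratios for troponin I and T, were not analysed here.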

Additional observations from a re-analysis of the deposited data

How the results depend on the processing

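With 1 library per group, leaving out a replicate was not possible, and no paired analysis was possible because each group is 1 pool of different piglets. None of the 8 members with a ratio, and no slow to fast ratio, changed direction under any alternative run. The median of the slow-fibre list did, from 0.11 to between -0.28 and -0.036 under the 4 scalings, a pseudocount of 1 and the read minimum. TNNC1 and the main TPM3 entry kept their calls except under the exact test of edgeR with variation assumed at 0.4. Under it 0 members and 0 entries of the partner, slow-fibre and fast-fibre lists were called, and only 3 of all entries were. In that test 2 members had an unadjusted p under 0.05, and the share of all entries that did was not counted. With an assumed variation of 0.2 TNNC1 and the main TPM3 entry were still called lower, and 3 partners higher. Of all entries, 0.16% were lower and 1.94% higher in that test. The median log2 ratio of the members moved from -0.29 to -0.65 with median-ratio scaling, -0.69 with TMM, -0.54 without mitochondrial totals and -0.51 at equal GAPDH. Under each of these 4 scalings 3 members were called lower instead of 2, entry 396693 of TPM2 being the third. The share of all entries called lower rose too, from 1.45% to 3.97%, 4.37%, 2.94% and 2.69% in the same order. Partners called fell from 8 to 5 with median-ratio scaling and to 5 with TMM, and to 2 with a log2 ratio of at least 2. At that last limit 0 fast-fibre entries were called instead of 1. Of all entries, the share called higher fell as well, from 12% to 6.48%, 5.99% and 3.31% in the same order. Over all entries, 1510 were higher and 182 lower by library totals, 812 and 498 after median-ratio scaling, and 2 and 1 with an assumed variation of 0.4. With TPM1 and TPM2 together as the fast tropomyosins, the log2 difference of the slow to fast ratio was -2.96 instead of -3.14. Depth limits TPM4, entry 414388 of TPM3 and entry 396693 of TPM2, which rest on at most 97 reads a library.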
